A study of Mus musculus with 10 samples.

Results

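The 10 genes described here encode nuclear receptors, most of which bind lipids: the peroxisome proliferator-activated receptors (PPARs) *Pparg*, *Ppara* and *Ppard*, the liver X receptors (LXRs) *Nr1h3* (LXRα) and *Nr1h2* (LXRβ), the retinoid X receptors (RXRs) *Rxra* and *Rxrb*, the retinoic acid receptor *Rara*, the vitamin D receptor *Vdr* and the glucocorticoid receptor *Nr3c1*. They were chosen by name, as 10 of the 55487 genes in the count table. Spinal cords were taken from 5 C57BL/6 males, aged 8 to 12 weeks, that carried an *Arg1* reporter allele (Arg1tm1Lky in the sample labels), in which the *Arg1* gene also drives yellow fluorescent protein (YFP). All mice had experimental autoimmune encephalomyelitis (EAE), an inflammatory demyelinating disease induced by immunization with a myelin peptide, and were killed at peak disease. From each mouse, viable CD3-Ly6G-CD45+CX3CR1+ cells were sorted into 200000 YFP+ (ARG1+) and 100000 YFP- (ARG1-) cells, so that bulk RNA-seq of 5 ARG1+ libraries was compared with that of 5 ARG1- libraries of the same animals. The mice are numbered m2, m6, m234, m235 and m236. No healthy mice and no animals without the reporter entered the comparison.

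Nuclear receptors are transcription factors that a small lipophilic ligand switches between corepressors and coactivators. PPARs answer to fatty acids and their derivatives, LXRs to oxysterols, retinoic acid receptors to retinoic acid, the vitamin D receptor to calcitriol and the glucocorticoid receptor to corticosterone. PPARs, LXRs, the retinoic acid receptors and the vitamin D receptor bind DNA as a pair with an RXR, on repeats of a short half-site, while the glucocorticoid receptor binds mainly as a homodimer. In macrophages that take up myelin, LXRs and PPARs are known for their control of cholesterol export and fatty acid use.

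Library totals lay between 28870482 and 33826355 counts in ARG1+ cells and between 8396863 and 35455643 in ARG1- cells. The ARG1- library of m234 had the lowest total, and the others had at least 28212174 counts. *Arg1* was at 813 ± 174 CPM (counts per 1e6 counts of the scaled library size) in ARG1+ and 18.4 ± 4.95 CPM in ARG1- libraries (SD, n = 5 each), which checks the sort. Of the genes behind the gate, *Ptprc* (CD45) was at 622 ± 37.4 and 726 ± 70.1 CPM (FDR 0.069; with the animal as a block, log2 fold change -0.22, FDR 0.00192), *Cx3cr1* had a log2 fold change of -1.01 (FDR 0.153; with the block, -0.97, FDR 9.24e-05), and *Cd3e* and *Ly6g* were below the filter on low counts. The gate can hold several myeloid types. The summed level of 8 microglia markers was 767 to 1186 CPM in ARG1+ libraries, 839 to 1521 CPM in 4 ARG1- libraries and 3184 CPM in the ARG1- library of m234. Of these 8 markers, edgeR called 0 (5 were lower at an unadjusted p below 0.05), DESeq2 called 1 lower and limma-trend 0, while 6 were lower with the animal as a block. Of 8 dendritic cell markers 6 were tested and 5 (*Flt3*, *Zbtb46*, *Ccr7*, *Dpp4* and *Batf3*) were lower in ARG1+ cells. All 8 together summed to 10.9 to 26.8 against 23.5 to 44.5 CPM. Of 5 monocyte markers 3 were lower (*Ccr2*, *Plac8* and *Treml4*), and all 5 together summed to 641 to 992 against 1364 to 1839 CPM. Of 6 macrophage markers 3 were higher (*Cd68*, *Lyz2* and *Itgam*), and with the block 4 were higher and 2 lower. All 6 together summed to 12780 to 17511 against 10648 to 13051 CPM. Of 7 border macrophage markers 3 were tested and 2 were higher (*Mrc1* and *Pf4*). *Lyve1*, *Cd163*, *Cbr2* and *Folr2* were below the filter on low counts. All 7 together summed to 700 to 1362 against 322 to 802 CPM. Neutrophil markers summed to 299 to 451 against 258 to 370 CPM with 1 of 4 tested lower (*S100a9*) and, at an unadjusted p below 0.05, 1 higher, while the block called 2 higher (*S100a8* and *Mmp8*) and 2 lower (*S100a9* and *Csf3r*). Oligodendrocyte and astrocyte markers summed to 114 to 152 against 105 to 153 CPM with 0 of 5 tested called by edgeR (1 was higher at an unadjusted p below 0.05, 1 with DESeq2 and 0 with limma-trend). With the block *Mbp* was called higher. None of these markers was at 0 in all libraries. B cell markers summed to at most 5.64 CPM and T and NK cell markers to at most 2.52 CPM in any library. Over all 13740 tested genes, edgeR called 6.82% higher and 6.15% lower, and 16.8% and 18.3% with the block. DESeq2 called 1276 higher and 1307 lower. For an unadjusted p below 0.05 no share over all genes is given. In bulk samples a change in the share of a cell type and a change of RNA per cell cannot be told apart, and the part of these markers in the receptor results was not tested.

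Of the 10 receptor genes, 9 passed the filter of CPM above 1 in at least 3 libraries, and *Ppara* did not. *Rxra* was 1.46-fold higher and *Vdr* 1.67-fold lower in ARG1+ cells. These were the receptors past a false discovery rate (FDR) of 0.05 over the 13740 genes tested (edgeR's quasi-likelihood test). In the same test 6.82% of all tested genes were higher and 6.15% were lower, so 1 receptor in each direction of 9 is read against that background and nothing particular to the list is drawn from it. With library totals in place of TMM scaling, the calls over all genes split into 705 higher and 1281 lower, against 937 and 845 with TMM, and the called receptors were again *Rxra* and *Vdr*. The groups did not overlap for 2 receptors, *Rxra* and *Vdr*, where 11.3% of all tested genes had no overlap. No receptor passed an absolute log2 fold change of 1 together with the FDR, where 1.45% of all tested genes did. The median log2 fold change of the 9 receptors was -0.049, and that of all tested genes was -0.002.

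Because both libraries of a pair came from 1 animal, the same test was run with the animal as a block. It called 3 receptors higher (*Rxra*, *Pparg* and *Nr1h3*) and 3 lower (*Vdr*, *Rara* and *Rxrb*). With this block 16.8% of all tested genes were higher and 18.3% lower, so the additional calls came with a general rise in calls. The fitted changes themselves differed little between the fits, and the standard errors were smaller with the block.

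**Figure D1:**
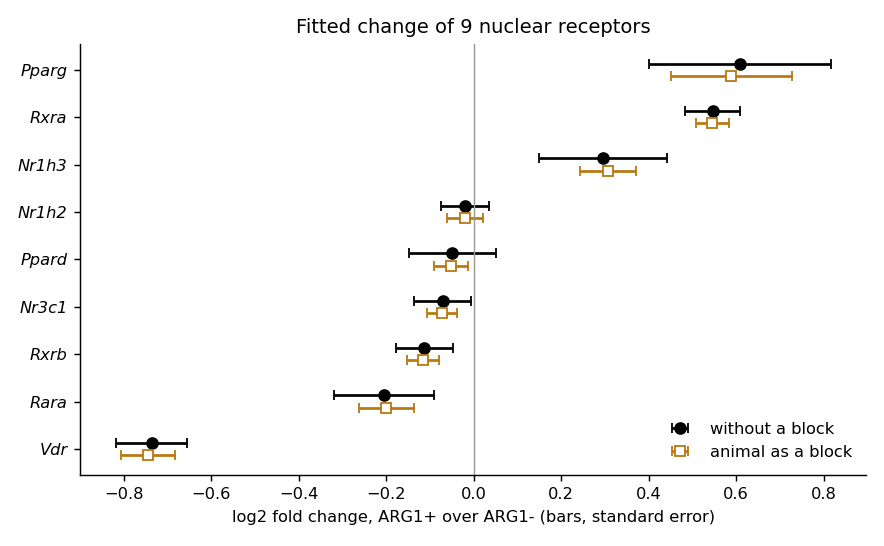
Fitted log2 fold change (x axis, ARG1+ over ARG1-) of the 9 tested receptors without a block (filled circles) and with the animal as a block (open squares), with bars of 1 standard error. *Rxra* and *Vdr* stand farthest from 0 relative to their error, and *Pparg* has the largest increase (0.61) with the widest bar (0.21 without a block).

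The RXRs are the partners that the other heterodimeric receptors share. *Rxra*, on chromosome 2 from 27676440 to 27762957 (forward strand, GRCm38), stood at 131, 129, 125, 110.4 and 128 CPM in the ARG1+ libraries of m2, m6, m234, m235 and m236, and at 85.4, 90.1, 80.5, 79.4 and 91.7 CPM in their ARG1- libraries. The lowest ARG1+ library lay above the highest ARG1- library, and the level was higher in all 5 animals. The fitted change was 0.55 on the log2 scale (standard error 0.062, FDR 3.92e-04), and 0.55 with the block (standard error 0.038, FDR 7.41e-06). *Rxra* passed in each of the 25 fits run, with a log2 fold change of 0.51 to 0.59. Without both libraries of m234, the animal whose ARG1- library was shallow and rich in microglia markers, it was 0.53 (FDR 0.0019).

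*Rxrb*, the other RXR expressed here, on chromosome 17 from 34031812 to 34038399 (forward strand), reached 41.9, 46.7, 47.9, 41.9 and 48.6 CPM in ARG1+ and 46.6, 52.0, 51.5, 45.1 and 50.6 CPM in ARG1- libraries, in the same order of animals. The groups overlapped, while within each of the 5 animals the ARG1+ library was the lower. The log2 fold change of -0.11 (standard error 0.065) did not pass without the block (FDR 0.264) and passed with it (-0.12, standard error 0.037, FDR 0.0348). Over all tested genes 21.0% were lower in 5 of 5 animals and 19.9% were higher, so agreement of the animals alone is common. The third family member *Rxrg*, named here after its values were seen, had 2 counts in all ARG1+ libraries together and 16 in all ARG1- libraries, 10 of them in the ARG1- library of m234.

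A ratio of isotypes within a library does not depend on library scaling. Counts of *Rxra* were 2.61 to 3.13 times those of *Rxrb* in ARG1+ libraries and 1.56 to 1.83 times in ARG1- libraries, with no overlap. The mean log2 ratio was 1.46 ± 0.11 in ARG1+ and 0.80 ± 0.091 in ARG1- libraries (SD, n = 5 each), a difference of 0.66 on the log2 scale (2-sided exact permutation test, p = 0.00794, the smallest that 5 against 5 libraries allow, 0.0238 after adjustment over 3 ratios). Without both libraries of m2, m234, m235 or m236 the difference was 0.64 to 0.69 with an adjusted p of 0.0857 (exact permutation test), where 4 against 4 libraries allow no unadjusted p below 0.0286. Within animals the log2 ratio was higher by 0.54 to 0.77 (SD 0.099, n = 5 pairs), and an exact test over the signs of the 5 differences, added after the data were seen, gave p = 0.0625, the smallest that 5 pairs allow. Per kilobase of exon, *Rxra* stood at 0.984 times *Rxrb* in ARG1- cells and 1.56 times in ARG1+ cells (geometric means). The RXR transcripts were thus about even in ARG1- cells on this scale, and *Rxra* led in ARG1+ cells. All 3 ratios use the counts already in the fits, and the receptors were chosen with earlier results of these data known. The p-values of the ratios are therefore a description and no separate support.

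**Figure D2:**
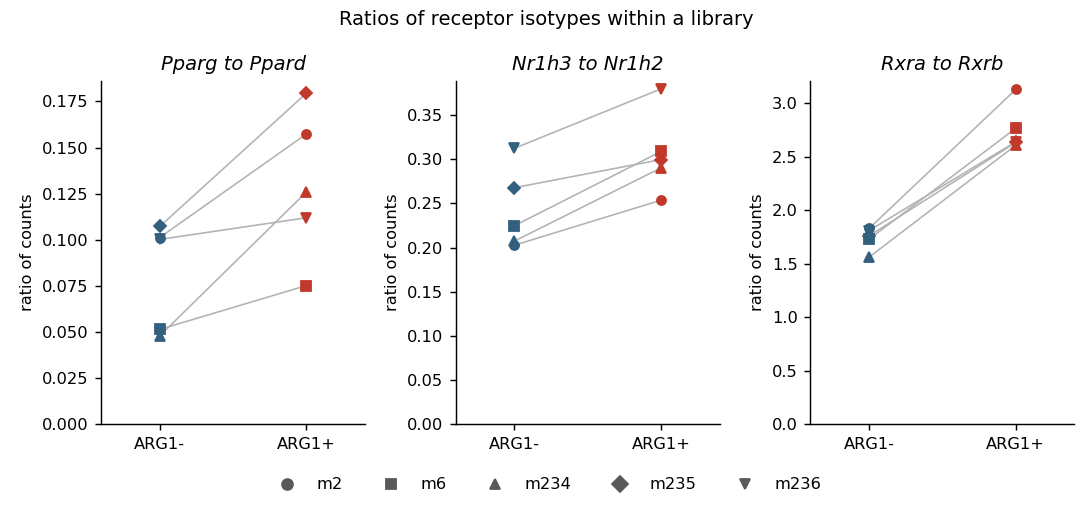
Ratio of counts (y axis, from 0) of *Pparg* to *Ppard*, *Nr1h3* to *Nr1h2* and *Rxra* to *Rxrb* in each library, with lines that join the ARG1- and ARG1+ libraries of 1 animal and a symbol for each animal. All 15 lines go up from ARG1- to ARG1+, and the groups are apart for *Rxra* to *Rxrb* (1.56 to 1.83 against 2.61 to 3.13) and overlap for the other ratios.

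*Vdr*, the receptor for the active form of vitamin D, was the receptor with the largest fitted decrease. It lies on chromosome 15 from 97854425 to 97910630 (reverse strand). Its levels were 50.3, 43.5, 48.1, 36.8 and 47.2 CPM in the ARG1+ libraries of m2, m6, m234, m235 and m236 and 83.4, 73.4, 70.4, 75.7 and 72.9 CPM in their ARG1- libraries. Every ARG1+ library lay below every ARG1- library. edgeR put the change at -0.74 on the log2 scale (standard error 0.082, FDR 3.49e-04), and -0.74 with the block (standard error 0.062, FDR 2.11e-05). The within-animal log2 differences ran from -1.04 in m235 to -0.55 in m234. *Vdr* passed in all 25 fits, at -0.79 to -0.66, and without both libraries of m234 it was at -0.78 (FDR 0.00122).

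The promoters of the receptors called without the block are shown because RXR heterodimers bind DNA through the half-site AGGTCA, so that the windows can be read for the letters that the receptors themselves recognise. The windows are those of RefSeq on GRCm38.p6, from 250 bases before to 50 bases after a transcription start, written 5′ to 3′ on the strand of the gene, and capitals mark AGGTCA or its reverse complement TGACCT. *Rxra* has 2 windows, chr2:27676951-27677250 and chr2:27709042-27709341, and *Vdr* has 1, chr15:97908247-97908546.
Rxra, first start: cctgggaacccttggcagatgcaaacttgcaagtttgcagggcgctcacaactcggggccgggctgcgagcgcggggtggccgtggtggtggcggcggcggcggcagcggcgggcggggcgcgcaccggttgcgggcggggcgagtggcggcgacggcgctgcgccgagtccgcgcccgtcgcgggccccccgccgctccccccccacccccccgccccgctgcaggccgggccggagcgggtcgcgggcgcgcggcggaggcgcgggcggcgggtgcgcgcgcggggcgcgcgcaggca
Rxra, internal start: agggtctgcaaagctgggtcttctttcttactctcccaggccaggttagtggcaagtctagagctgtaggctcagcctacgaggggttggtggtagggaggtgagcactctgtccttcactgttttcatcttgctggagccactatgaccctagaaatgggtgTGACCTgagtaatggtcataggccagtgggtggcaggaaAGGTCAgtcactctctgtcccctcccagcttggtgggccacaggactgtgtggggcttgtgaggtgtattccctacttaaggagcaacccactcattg
Vdr: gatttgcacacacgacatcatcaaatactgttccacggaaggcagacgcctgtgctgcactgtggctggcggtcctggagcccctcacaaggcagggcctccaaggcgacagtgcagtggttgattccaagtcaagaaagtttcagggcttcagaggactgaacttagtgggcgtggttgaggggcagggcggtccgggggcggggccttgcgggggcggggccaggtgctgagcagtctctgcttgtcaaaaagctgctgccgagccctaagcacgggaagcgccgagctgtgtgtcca

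The internal *Rxra* window held 1 half-site on each strand, and the first *Rxra* window and the *Vdr* window held none. Of the 17 windows of the 9 receptors that were searched, 4 held a half-site, and 16.3% of all 32851 windows did. *Nr3c1* was left out of this search, so whether its promoter holds a half-site was not tested. The other matches were in *Pparg*, 28 and 9 bases before 2 of its 3 starts, and in *Rara*, 33 bases after 1 of its 4 starts, and they are shown with the bases around them for comparison with those of *Rxra*.
Pparg, chr6:115361104-115361133: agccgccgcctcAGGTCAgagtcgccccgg
Pparg, chr6:115362328-115362357: agggacgcgaggAGGTCAagaaggggcctg
Rara, chr11:98964893-98964921: gcagattgcagcAGGTCAgtcctttggac

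These letters describe the windows and do not show that a receptor binds there. Total counts per gene do not tell which start was used, so the levels of *Rxra* and *Pparg* cannot be assigned to a window.

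The PPARs differed widely in level. *Pparg*, known for its part in fatty acid storage and in alternatively activated macrophages, lies on chromosome 6 from 115360951 to 115490399 (forward strand). It was at 7.01, 4.11, 6.64, 7.35 and 5.02 CPM in the ARG1+ libraries of m2, m6, m234, m235 and m236 and at 4.82, 2.77, 2.70, 4.53 and 4.56 CPM in their ARG1- libraries. The ARG1+ library was the higher in each animal, but the ARG1+ library of m6 lay below 3 of the ARG1- libraries, so the groups overlapped. These levels rest on 127 to 243 counts in ARG1+ libraries and 23 to 153 in ARG1- libraries, with 23 in that of m234.

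The log2 fold change of *Pparg* was 0.61 (standard error 0.208), the largest increase among the receptors, with an FDR of 0.0752. It passed with DESeq2 (0.61, adjusted p = 0.0328), with the animal as a block (0.59, standard error 0.139, FDR 0.00896) and without the ARG1+ library of m6 (0.72, FDR 0.0484). It passed in 4 of the 25 fits, the remaining one being the block without m234 (0.49, FDR 0.00374). The within-animal log2 difference was largest in m234 (1.27) and smallest in m236 (0.14).

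*Ppard*, the PPAR found in most tissues and a regulator of fatty acid oxidation, ranged over 41.0 to 54.8 CPM across ARG1+ and 42.4 to 57.4 CPM across ARG1- libraries, and the groups overlapped almost fully. The fitted log2 fold change was -0.05 (standard error 0.100, FDR 0.78; with the block, FDR 0.323). The sign of this change turned without the ARG1+ library of m235 (0.00067) or the ARG1- library of m234 (0.0062). *Ppara*, which drives fatty acid oxidation in liver, had 0 counts in all 10 libraries, which allows a level of up to 0.0104 CPM over the 289123049 counts, and 24.3% of the 21936 protein-coding genes of the table were likewise at 0 in all libraries. That limit covers counting error only.

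The count of *Pparg* was 0.0752 to 0.180 times that of *Ppard* in ARG1+ and 0.0480 to 0.107 times in ARG1- libraries, and the ratio was the higher in ARG1+ cells in all 5 animals. The difference in log2 ratio was 0.70, and the test over libraries, which does not use the pairing, gave p = 0.0873 (2-sided exact permutation test, adjusted p = 0.0873). The within-animal differences were 0.64, 0.55, 1.39, 0.74 and 0.16 in m2, m6, m234, m235 and m236 (exact test over signs, p = 0.0625, the smallest that 5 pairs allow). Without the ARG1+ library of m6 it was 0.88 (exact permutation test, adjusted p = 0.0357), and without both libraries of m6 it was 0.73 (adjusted p = 0.0429).

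**Figure D3:**
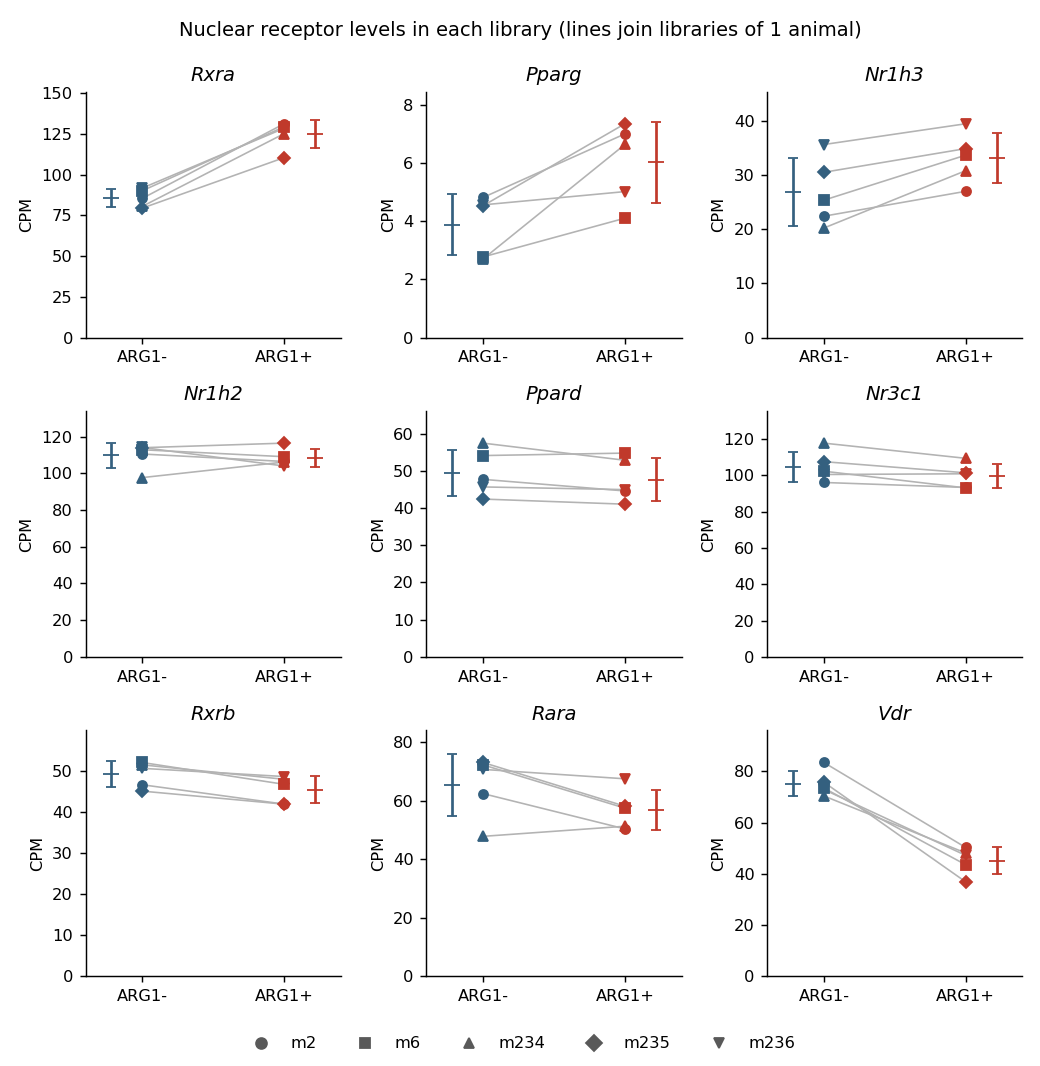
CPM (y axes, each from 0) of the 9 detected receptors in each ARG1- (blue) and ARG1+ (red) library, with a symbol for each animal, a line that joins its libraries, and at the sides the mean with a bar of 1 SD (n = 5). *Rxra* rises in every animal to levels above all ARG1- libraries and *Vdr* falls in every animal to levels below them, the 5 lines of *Pparg* and of *Nr1h3* go up while the groups overlap, and *Nr1h2*, *Ppard* and *Nr3c1* have lines close to level.

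The LXRs turn on cholesterol export when sterols accumulate. *Nr1h3*, the form enriched in macrophages and liver, on chromosome 2 from 91184061 to 91202834 (reverse strand), had levels of 27.0, 33.7, 30.8, 34.9 and 39.4 CPM in ARG1+ and of 22.4, 25.3, 20.2, 30.5 and 35.6 CPM in ARG1- libraries of m2, m6, m234, m235 and m236. Animals differed more than the sorted groups did: m236 was the highest in both groups, and its ARG1- library exceeded 4 of the ARG1+ libraries. Within each animal the ARG1+ library was the higher, by 0.15 to 0.60 on the log2 scale. The change between groups was 0.29 on the log2 scale (standard error 0.146, FDR 0.198) without the block and 0.31 (standard error 0.064, FDR 0.00492) with it.

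*Nr1h2*, the LXR present in most tissues, ranged over 104 to 116 CPM across ARG1+ and 97.6 to 114 CPM across ARG1- libraries, and 2 animals were higher and 3 lower in ARG1+ cells. The fitted change was -0.02 on the log2 scale (standard error 0.055, FDR 0.838; with the block, FDR 0.736), and it was 0.0075 without both libraries of m236. The count of *Nr1h3* was 0.254 to 0.380 times that of *Nr1h2* in ARG1+ and 0.203 to 0.312 times in ARG1- libraries. The difference in log2 ratio was 0.34, and the test over libraries, without the pairing, gave p = 0.0714 (2-sided exact permutation test, adjusted p = 0.0873). Within animals the difference was 0.32, 0.46, 0.48, 0.16 and 0.28 in m2, m6, m234, m235 and m236, with an SD of 0.13 (exact test over signs, p = 0.0625, the smallest that 5 pairs allow). Without the ARG1- library of m236 it was 0.44 (exact permutation test, adjusted p = 0.0357).

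*Rara*, a receptor for all-trans retinoic acid on chromosome 11 from 98927818 to 98974942 (forward strand), was measured at 50.4, 57.4, 51.3, 58.1 and 67.5 CPM in ARG1+ libraries, and at 62.4, 72.2, 47.8, 73.0 and 70.7 CPM in ARG1- libraries of m2, m6, m234, m235 and m236. The ARG1+ library was the lower in 4 of 5 animals, and m234 went the other way, with the lowest of all values in its ARG1- library. The fitted change was -0.20 on the log2 scale (standard error 0.114, FDR 0.252), and -0.20 with the block (standard error 0.063, FDR 0.0317). Without the ARG1- library of m234 it was -0.29 (FDR 0.0492), without both libraries of m234 it was -0.25 (FDR 0.0805), and with the block and without both libraries of m234 it was -0.26 (FDR 6.79e-04). The isotype *Rarg*, named after its values were seen, was at 19.5 ± 2.98 and 18.7 ± 1.502 CPM (SD, n = 5 each; FDR 0.752), and *Rarb* had at most 4 counts in any library.

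*Nr3c1*, through which corticosterone represses inflammatory genes, ranged over 93.1 to 109 CPM across ARG1+ and 96.1 to 118 CPM across ARG1- libraries. The groups overlapped, and the log2 fold change was -0.07 (standard error 0.066, FDR 0.501; with the block, FDR 0.136).

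Levels of different genes can be set side by side only per length, here as CPM per kilobase of the gene's merged exons, which take no account of which transcripts the cells used. In ARG1+ cells the order was *Nr1h2* (54.0 ± 2.41), *Rxra* (24.5 ± 1.65), *Rxrb* (15.7 ± 1.14), *Nr1h3* (15.4 ± 2.16), *Nr3c1* (15.2 ± 1.03), *Ppard* (14.5 ± 1.79), *Rara* (13.3 ± 1.60), *Vdr* (10.3 ± 1.20) and *Pparg* (2.53 ± 0.587 CPM per kilobase, SD, n = 5). From *Rxrb* to *Rara* the ranges of neighbours overlapped, while *Nr1h2*, *Rxra*, *Vdr* and *Pparg* were each apart from their neighbours. In ARG1- cells *Nr1h2* again led (54.7 ± 3.46 CPM per kilobase), but *Vdr* came next (17.2 ± 1.14), ahead of *Rxrb* (17.01 ± 1.08) and *Rxra* (16.7 ± 1.08), and from *Vdr* down to *Nr1h3* (12.5 ± 2.91) every range overlapped that of its neighbour. *Pparg* was last of the 9 in both groups (1.63 ± 0.441 in ARG1- cells). Averaged over all 10 libraries, the level per kilobase of *Nr1h2* lay above that of 89.7% of 13725 tested genes and that of *Pparg* above 22.4%, with the other 7 receptors between 65.3% and 74.5%.

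**Figure D4:**
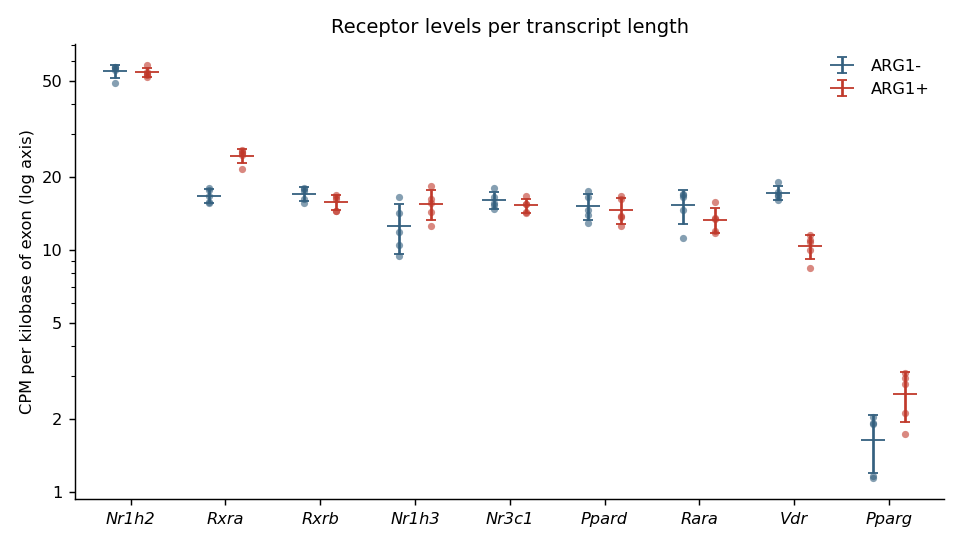
CPM per kilobase of exon (y axis, log scale) of the 9 detected receptors in ARG1- (blue) and ARG1+ (red) libraries, with points for libraries and the mean with a bar of 1 SD (n = 5). *Nr1h2* is the highest and *Pparg* the lowest in both groups, and *Rxra* goes from 16.7 to 24.5 and *Vdr* from 17.2 to 10.3 CPM per kilobase (means) while *Rxrb*, *Nr1h3*, *Nr3c1*, *Ppard* and *Rara* have means between 12.5 and 17.01.

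By the likeness of their 5 within-animal log2 differences, the tested genes nearest to *Rxra* were *Nrp2*, a receptor for semaphorins and vascular growth factors, *Bivm* and *Ier3*, an immediate early gene, with root mean square gaps of 0.031, 0.045 and 0.047 on the log2 scale over 5 animals. *Nrp2* was at 311 ± 26.3 and 211 ± 19.97 CPM (SD, n = 5 each). The genes nearest to *Vdr* were *Fam129a*, *Slc2a6*, a sugar transporter, and *Jak2*, a kinase of cytokine receptors, with gaps of 0.116, 0.122 and 0.127. *Jak2* averaged 164 ± 13.1 and 256 ± 25.1 CPM in ARG1+ and ARG1- libraries (SD, n = 5 each). These genes were chosen for that likeness, which is given as a description without a test.

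Of 39 other nuclear receptors 14 were tested, 11 had 0 counts in all libraries and 14 were below the filter. edgeR called 0 of the 14, with 2 higher at an unadjusted p below 0.05, DESeq2 called 2 higher and limma-trend 0. With the animal as a block 5 were higher (*Thra*, *Rora*, *Nr2c1*, *Nr4a1* and *Nr4a2*, named after their values were seen) and 1 was lower (*Esrra*). The most abundant was *Nr4a3*, an orphan receptor of the immediate early response, at 938 ± 128 and 923 ± 76.2 CPM (SD, n = 5 each; log2 fold change 0.02, FDR 0.901), a change whose sign turned with library totals. The median log2 fold change of the 14 was 0.04. Without the block 6.82% of all tested genes were higher and 6.15% lower, and with it 16.8% and 18.3%. DESeq2 called 1276 of all 13740 tested genes higher and 1307 lower, and limma-trend 914 and 841. Calls in this and the following lists are read against these values. For an unadjusted p below 0.05 no share over all genes is given, so those counts have no background. The lists were chosen with earlier results of these data known, so their counts are a description only.

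Coactivators and corepressors, through which all of these receptors act, differed little. Of 17 such genes 16 were tested and edgeR called 0 (1 was lower at an unadjusted p below 0.05), DESeq2 called 1 lower, the block called *Pprc1* lower, and limma-trend called 0. Their median log2 fold change was -0.02. *Ep300*, a histone acetyltransferase and the most abundant of them, averaged 213 ± 10.7 and 227 ± 18.5 CPM in ARG1+ and ARG1- libraries (log2 fold change -0.09, FDR 0.394).

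Among known PPAR targets, 6 of the 19 tested of 22 rose in ARG1+ cells and 0 fell, with a median log2 fold change of 0.21. Of all tested genes 6.82% were higher and 6.15% lower, and 16.8% and 18.3% with the block. With the block 10 of the PPAR targets rose. Because the list was chosen with earlier results of these data known, no enrichment is drawn from these counts. The number that rose was 2 to 9 with libraries or animals left out (2 without both libraries of m2, and 3 without those of m6, m235 or m236 or without the ARG1+ library of m2). Over all tested genes, 360 to 1037 were higher in such fits, against 937 with all libraries. Without both libraries of m2 that number was 372, and without those of m6 it was 360. The fatty acid binding proteins rose most: *Fabp4* was at 5.17 ± 2.26 against 2.03 ± 0.663 CPM (log2 fold change 1.34, standard error 0.312, FDR 0.0172) and *Fabp5* at 354 ± 59.3 against 148 ± 35.8 CPM (SD, n = 5 each; 1.25, standard error 0.175, FDR 0.00121). The levels of *Fabp4* rest on 101 to 261 counts in ARG1+ libraries and 17 to 106 in ARG1- libraries. The FDR of *Fabp4* was 0.0653 without both libraries of m2 and 0.0705 without those of m236. The other 4 were *Hilpda*, a protein of lipid droplets, *Angptl4*, an inhibitor of lipoprotein lipase, and *Cpt1a* and *Acaa2* of mitochondrial fatty acid oxidation. *Ucp2*, the most abundant of the list, was at 1048 ± 84.4 and 1093 ± 91.3 CPM (log2 fold change -0.06, FDR 0.644).

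Of 17 known LXR targets 14 were tested, 4 rose and 1 fell, with a median log2 fold change of 0.20, and 8 rose and 2 fell (*Arl4c* and *Fasn*) with the block. The number that rose was 2 without both libraries of m6, m235 or m236. In those fits 360, 704 and 500 of all tested genes were higher, against 937 with all libraries. Of all tested genes 6.82% were higher and 6.15% lower, and 16.8% and 18.3% with the block. *Abca1*, which exports cholesterol to apolipoproteins, averaged 1553 ± 125 and 937 ± 57.6 CPM in ARG1+ and ARG1- libraries (SD, n = 5 each), with no overlap (log2 fold change 0.73, standard error 0.072, FDR 1.76e-04). *Smpdl3a*, a phosphodiesterase, rose by 0.59 on the log2 scale (standard error 0.101, FDR 0.00351). *Scd2*, a fatty acid desaturase, and *Mertk*, a receptor for dying cells, were also called higher. *Arl4c*, a small GTPase, fell by 0.40 (FDR 0.0195), and its FDR was 0.0799, 0.0872 and 0.0592 without both libraries of m2, m6 or m236. *Apoe*, the most abundant, spanned 10367 to 25809 CPM across ARG1+ and 8996 to 18301 CPM across ARG1- libraries and was higher in all 5 animals (log2 fold change 0.45, FDR 0.238; with the block, 0.42, FDR 6.32e-04).

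Retinoic acid receptor targets were few: 3 of 7 were tested, with a median log2 fold change of -0.07, and with the block *Hic1* was also lower. *Dhrs3*, which turns retinal back to retinol, rose from 63.0 ± 6.15 to 109 ± 12.5 CPM without overlap (SD, n = 5 each; 0.79 on the log2 scale, standard error 0.091, FDR 4.09e-04). *Tgm2*, a transglutaminase, was at 1724 ± 154 CPM in ARG1- libraries, and at 1645 ± 116 CPM in ARG1+ libraries (FDR 0.593). Of 4 vitamin D receptor targets 1 was tested. That gene, *Spp1*, which encodes the secreted protein osteopontin and has many regulators, was at 1761 ± 757 against 751 ± 323 CPM (log2 fold change 1.23, standard error 0.316, FDR 0.0261), so that it rose where *Vdr* fell. Its FDR was 0.0643 without the ARG1+ library of m2, 0.0606 and 0.0557 without the ARG1- libraries of m6 or m236, and 0.0983 and 0.0663 without both libraries of m6 or m235. *Cyp24a1*, the vitamin D 24-hydroxylase, was below the filter.

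Of 12 glucocorticoid receptor targets 11 were tested, 4 rose and 0 fell, with a median log2 fold change of 0.26, and with the block 7 rose and 2 fell (*Fkbp5* and *Per1*). The number that rose was 2 without either m2 library, without the ARG1- library of m6 or without both libraries of m236, and 1 without both libraries of m2 or of m6. Without both libraries of m2 or of m6, 372 and 360 of all tested genes were higher, against 937 with all libraries. Of all tested genes 6.82% were higher and 6.15% lower, and 16.8% and 18.3% with the block. *Mt2*, a metallothionein like *Mt1*, which also rose, rose by 0.87 on the log2 scale (standard error 0.131, FDR 0.00174). *Anxa1*, a protein that resolves inflammation, rose by 0.61 (standard error 0.165, FDR 0.0319), with an FDR of 0.0536 to 0.118 in 8 of the 15 fits that left out a library or an animal. *Sgk1*, a kinase and the most abundant, rose by 0.45 (FDR 0.00794), with an FDR of 0.0503 and 0.0505 without both libraries of m2 or m6. Of 6 genes for chaperones of the receptor edgeR called 0 (2 were lower at an unadjusted p below 0.05), DESeq2 called 2 lower, limma-trend 0 and the block 4 lower (*Hsp90ab1*, *Fkbp5*, *Ptges3* and *Stip1*), with a median log2 fold change of -0.14. *Hsp90ab1*, a cytosolic heat shock protein, was at 1487 ± 66.0 and 1670 ± 90.8 CPM (FDR 0.0915; with the block, log2 fold change -0.17, FDR 0.00907).

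Enzymes that make, break down or carry the ligands were mostly low: 7 of 20 were tested, 1 rose and 2 fell, and with the block 2 rose (*Hsd11b1* and *Rdh11*) and 3 fell (*Ch25h*, *Alox5* and *Cyp27a1*). The median log2 fold change was -0.05. *Ch25h*, which makes the LXR ligand 25-hydroxycholesterol, averaged 2.93 ± 0.537 and 6.82 ± 2.94 CPM in ARG1+ and ARG1- libraries without overlap (SD, n = 5 each; -1.17 on the log2 scale, standard error 0.258, FDR 0.013), and its FDR was 0.0794 without both libraries of m2. *Alox5*, which makes leukotrienes, fell from 3.59 ± 1.11 to 1.91 ± 0.417 CPM (log2 fold change -0.89, FDR 0.0336), and its FDR was above 0.05 in 12 of the 15 fits that left out a library or an animal, up to 0.157. *Hsd11b1*, which regenerates corticosterone, was at 6.45 ± 1.93 and 3.76 ± 0.942 CPM (log2 fold change 0.76, FDR 0.0475). It lost the call in 15 fits, among them limma-trend (adjusted p = 0.0507) and library totals (FDR 0.051), and had an FDR of up to 0.179 with libraries left out. *Rdh11*, a retinol dehydrogenase, was the most abundant, at 29.2 ± 2.05 and 26.0 ± 2.21 CPM (FDR 0.149; with the block, 0.16, FDR 0.0378).

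**Figure D5:**
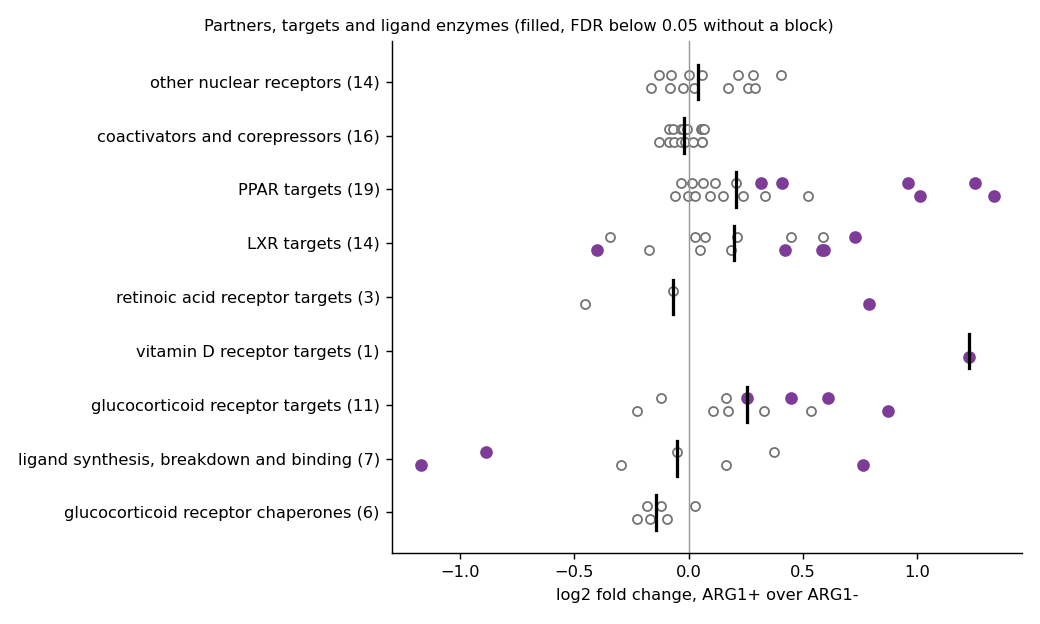
Log2 fold change (x axis, ARG1+ over ARG1-) of each tested gene of 9 lists around the receptors, with the number tested in brackets, filled points for FDR below 0.05 without a block and a bar at the median. Other receptors and cofactors have medians of 0.04 and -0.02 and no filled points, with single receptors up to 0.41 (*Nr2c1*). The PPAR, LXR and glucocorticoid receptor targets have medians of 0.20 to 0.26.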

How the data were processed

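The authors made strand-specific libraries, read 50 bases from 1 end of each fragment, aligned them with STAR (2.7.10b per the submitters' processing notes) to GRCm38 with the basic Ensembl annotation, and counted them per gene with summarizeOverlaps in Union mode, which leaves out reads that overlap more than 1 feature. The deposited values are raw counts, without normalization. Strand use in counting: not given in the sources used here. No exon of the 10 receptor genes overlapped one of another gene in GENCODE M21, which also gave exon lengths and coordinates, and at most 0.276% of their 50-base stretches recurred elsewhere.

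Genes with CPM above 1 in at least 3 of 10 libraries (13740) were tested with edgeR 4.0.16 in R 4.3.3 (quasi-likelihood test, TMM, no block, Benjamini-Hochberg over all tested genes). The study used limma-trend with the same filter. CPM values are counts per 1e6 counts of TMM-scaled library size. The 3 isotype ratios used counts plus 0.5 and exact permutation tests over libraries. Alternatives were DESeq2 1.42.0, limma-trend (limma 3.58.1), RLE or unscaled library sizes, other filters, the animal as a replicate block, each library or animal left out, and, added after seeing the data, the block without m234 and an exact test over the signs of within-animal differences for the ratios. Pairing comes from the animal numbers in the titles: residuals from the group means correlated at 0.361 to 0.660 across genes within an animal and at most 0.0672 between animals. The p-values without a block measure the spread between the libraries of these animals. Those with the block or over signs rest on the spread of the differences within these animals. Libraries of 1 group differed by more than sampling noise. The fits were tested on simulated data that held no animal effect, so the use of the pairing by the block was not checked there. At the lowest total, 1 CPM is 8.40 counts.

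The members and lists were chosen with earlier results of these data known, and marker and target lists were written from general knowledge. The genes named are every receptor of the list, *Arg1*, for each list that holds no cell type markers the most abundant tested gene and, among those with an FDR below 0.05, the 2 that increased most and the 2 that decreased most, and for each called receptor the 3 genes nearest in within-animal differences. Other genes are named as what a count holds or after their values were seen.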

Additional observations from a re-analysis of the deposited data

Results flagged for a closer look

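In groups of 5 libraries, the highest or lowest library was compared with the others by its gap to the nearest one as a share of the group's range (limit 0.71), for the 38 named genes and the 3 isotype ratios. This flagged 6 of 82 groups, and chance flags about 1 in 20. *Nr1h2* was at 97.6 CPM in the ARG1- library of m234, with 110.5 to 114.0 CPM in the other ARG1- libraries. *Arg1* was at 26.9 CPM in the ARG1- library of m2 (others 14.3 to 17.9 CPM). *Nr4a3* was at 788 CPM in the ARG1- library of m235 (others 946 to 974 CPM), and *Sgk1* at 1085 CPM in the ARG1+ library of m235 (others 892 to 947 CPM). *Bivm* was at 5.76 CPM in the ARG1- library of m234 (others 6.46 to 6.74 CPM), and *Slc2a6* at 79.3 CPM in the ARG1- library of m236 (others 62.0 to 65.2 CPM). The ARG1- library of m234, which holds 2 of these values, also had the lowest total count and the highest sum of microglia markers, and their part in these values was not tested.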

How the results depend on the processing

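*Rxra* and *Vdr* kept their direction and an FDR below 0.05 in all 24 alternative fits. The count of receptors called higher was 1, and 2 with DESeq2, 3 with a replicate block by animal, 3 with the block without m234 and 1 to 2 with libraries or animals left out. DESeq2 also called more of all 13740 tested genes higher, 1276 against 937 in the main fit. The count called lower was 1, and 3 with the replicate block, 3 with the block without m234 and 1 to 2 with libraries left out. Over all tested genes past both limits (77 higher and 122 lower), the lower count was 186 with DESeq2, 190 without a filter and 213 with the block, and leaving out libraries gave 53 to 87 higher and 68 to 168 lower. Past the FDR alone, 2307 were higher and 2519 lower with the block, and 2706 and 2823 with the block without m234. DESeq2 called 1276 higher and 1307 lower, and library totals gave 1281 lower. With libraries left out, 360 to 1037 were higher and 284 to 911 lower. Of the 90 tested genes in the 9 lists around the receptors, 17 were higher and 3 lower (6.82% and 6.15% over all tested genes). The block gave 34 and 13 (16.8% and 18.3% over all tested genes), and the block without m234 36 and 12. DESeq2 and library totals each gave 6 lower, and left-out libraries 7 to 20 higher and 0 to 4 lower. The log2 ratio differences kept their sign, with 0.52 to 0.88 for *Pparg* to *Ppard*, 0.26 to 0.44 for *Nr1h3* to *Nr1h2* and 0.62 to 0.69 for *Rxra* to *Rxrb* with libraries left out. With 4 libraries against 4, the adjusted p for *Rxra* to *Rxrb* was 0.0857 without m2, m234, m235 or m236, where the smallest possible unadjusted exact permutation p is 0.0286. With the animal as a replicate block, an exact test over the signs of the within-animal differences gave an adjusted p of 0.0625 for each of the 3 ratios (differences of 0.70, 0.34 and 0.66), the smallest that 5 pairs allow, so that test cannot pass the threshold. Pseudocounts of 0 and 5 changed no call of a ratio.

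Signs turned for *Ppard* without the ARG1+ library of m235 (0.00067) or the ARG1- library of m234 (0.0062), for *Nr1h2* without m236 (0.0075), and for *Nr4a3* with library totals (-0.018), without the ARG1+ library of m234 (-0.042), the ARG1- library of m235 (-0.023) or both libraries of m234 (-0.031), and with the block without m234 (-0.033). Leaving out libraries gave -0.10 to 0.0062 for *Ppard*, -0.056 to 0.0075 for *Nr1h2* and -0.042 to 0.095 for *Nr4a3*, and none of these passed the FDR. Of the fits of single named genes under the alternatives, 805 kept direction and call, 51 lost a call, 24 gained one and 8 turned in sign. Causes were not tested. The lowest count behind a value of a tested receptor was 23, for *Pparg* in the ARG1- library of m234, and without that library the standard error of *Pparg* was 0.206, against 0.208 with it.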
